A study of Rattus norvegicus with 8 samples.

Results

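Of the 34053 barcodes with at least 500 transcripts in 8 libraries of rat liver immune cells, 1883 drew 20% or more of their transcripts from the mitochondrial genome. They are called high-share barcodes here, and the other 32170 are the reference barcodes. The share was taken over the 13 protein-coding genes of the mitochondrial genome (symbols starting with Mt-), and transcripts were counted as unique molecular identifiers (UMIs), the tags that mark each captured molecule once. In each library the non-mitochondrial transcripts of both classes were compared, to ask which cell lineages and which transcripts remained among the high-share barcodes.

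As background, a cell whose outer membrane has been torn loses transcripts of the cytosol into its surroundings, whereas transcripts inside mitochondria stay enclosed by mitochondrial membranes. A high mitochondrial share is therefore commonly read as a sign of a leaky or dying cell in droplet-based sequencing, although cells rich in mitochondria, such as hepatocytes, can reach high shares when intact. Barcodes past such a limit are usually removed before an analysis.

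The cells came from 4 male Han Wistar rats whose age is not given in the sources used here. Rats NC1 and NC2 (negative controls) were fed the choline-sufficient, l-amino acid-defined diet (CSAA), and PC1 and PC2 (positive controls) its choline-deficient counterpart (CDAA). Each liver was pressed through filters, erythrocytes were lysed, and the immune cells were enriched by centrifugation on Lymphocyte Separation Medium. Every rat gave 1 library of fresh cells and 1 of cells cryopreserved in DMSO and stored for 3 weeks, made with the Chromium 3′ v2 kit of 10x Genomics. Storage and the day of processing cannot be told apart, and each diet had 2 rats. The libraries held 23760763, 22024254, 24985411 and 26471843 UMIs in the fresh cells of NC1, NC2, PC1 and PC2, and 18338700, 18460869, 24520276 and 25466003 UMIs in the preserved cells. All values below list the animals in this order. Damage itself was not measured on single barcodes, so the barcodes are named by their mitochondrial share and not as damaged cells.

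The high-share barcodes made up 3.23%, 6.88%, 4.74% and 8.85% of the barcodes in the fresh libraries, which was 154, 305, 205 and 407 barcodes. In the preserved libraries the percentages were 3.21%, 6.66%, 4.69% and 5.74%, from 118, 245, 192 and 257 barcodes. Exact binomial 95% intervals ran from 2.74% to 3.77% in fresh NC1 and from 8.05% to 9.71% in fresh PC2, and they cover counting error only. The preserved shares of NC1, NC2 and PC1 lay within the intervals of their fresh libraries, whereas that of PC2, with an interval from 5.07% to 6.46%, lay below. The mean share was 5.92% in fresh and 5.08% in preserved libraries, a difference of -0.849 ± 1.52 percentage points (SD, n = 4 animals), lower in 4 of 4 animals (two-sided exact permutation test, p = 0.125, the smallest that 16 sign changes allow). Without PC2 the difference was -0.0923 percentage points. CSAA animals averaged 5.0% and CDAA animals 6.0% (exact permutation test over 6 regroupings, p = 0.667, where 0.333 is the smallest possible), and the animals of the diets overlapped.

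**Figure D1:**
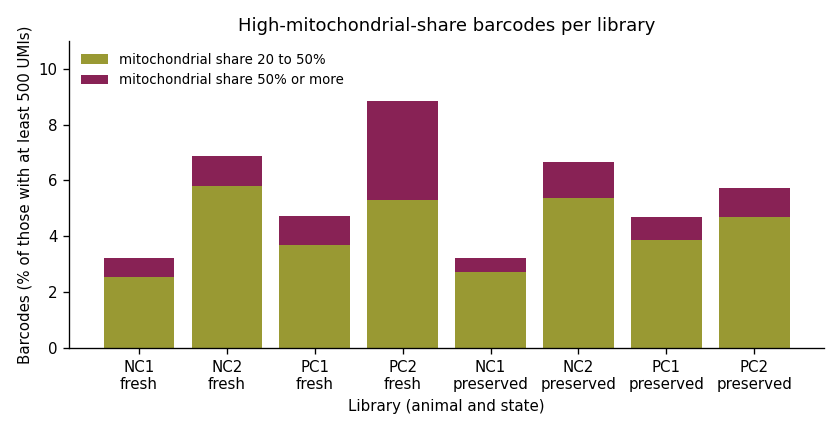
Percentage of barcodes with at least 500 UMIs (y axis) whose mitochondrial share was 20 to 50% (green) or 50% and more (purple, stacked), for each of the 8 libraries (x axis). The purple part was largest in fresh PC2, at 3.55% of the barcodes.

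Most of these barcodes lay close to the limit, and a second group lay above 60%. Of the 1883 barcodes, 1022 lay between 20 and 30%, 310 between 30 and 40%, 115 between 40 and 50% and 87 between 50 and 60%, but 287 between 60 and 70%. In fresh PC2 alone 124 barcodes lay between 60 and 70%. Barcodes of 50% or more numbered 33, 48, 46 and 163 in the fresh and 18, 47, 34 and 47 in the preserved libraries, 436 in all, and this division was chosen after the values were seen. They made up 1.60% of all barcodes in fresh and 0.912% in preserved libraries on average, a difference of -0.684 ± 1.22 percentage points (SD, n = 4 animals, lower in 3 and higher in 1, exact permutation test, p = 0.25). Most of this difference came from PC2, with 3.55% in fresh and 1.05% in preserved cells. The shares were 0.692% and 0.490% in NC1, 1.08% and 1.28% in NC2 and 1.06% and 0.830% in PC1. For the 1447 barcodes of 20 to 50%, the averages were 4.33% and 4.16%, with 2 animals higher and 2 lower after preservation (difference -0.165 percentage points, exact permutation test, p = 0.5).

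High-share barcodes were small, which the rule itself favours, so their size is a description. Their median was 929.5, 841, 792 and 834 UMIs in fresh and 862.5, 867, 870 and 822 UMIs in preserved libraries, against 3406 to 4567 UMIs in reference barcodes. The difference lay in the non-mitochondrial transcripts, whose median was 478 to 614 UMIs against 3229 to 4292 in the reference barcodes. Mitochondrial transcripts per barcode were close to those of the reference, with medians of 263 to 343 UMIs against 177 to 301. Only 8 of the 1883 barcodes exceeded 10000 UMIs. The 158 barcodes just inside the limit, at 20 to 21%, had a median of 1035 UMIs and 506 non-mitochondrial genes, and the 198 just outside it, at 19 to 20%, had 1025.5 UMIs and 502 genes. Empty droplets (barcodes of 10 to 100 UMIs, which hold free RNA of the suspension) had mitochondrial shares of 6.51%, 9.20%, 7.51% and 14.4% in fresh and 3.70%, 7.73%, 4.41% and 5.05% in preserved libraries. At the UMI count of an empty droplet, free RNA would make up 2.08 to 4.31% of the non-mitochondrial UMIs of high-share barcodes and 0.352 to 0.564% of those of reference barcodes. Of the high-share barcodes, 75 carried a barcode sequence that also occurred among the barcodes of another library, and no pair of libraries shared more than 1 high-share barcode as such.

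NC2 stood apart from the other animals in its mitochondrial transcripts. Mt-nd1, a subunit gene of complex I, made up 18.5% and 17.5% of the mitochondrial UMIs of its fresh and preserved high-share barcodes, and likewise 18.5% and 17.7% in its reference barcodes, against 9.02 to 11.9% in the other animals. All comparisons of the 2 classes below were made within the libraries of an animal, and values without each animal are given in the closing paragraphs.

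The number of different genes among the remaining transcripts was compared at a fixed depth. When every barcode was thinned to 200 non-mitochondrial UMIs, high-share barcodes showed 156 and reference barcodes 155 genes on average (difference 1.36 ± 0.933, SD, n = 4 animals, higher in 7 of 8 libraries, exact permutation test, p = 0.25). At 400 UMIs the means were 281 and 272 genes, higher in 8 of 8 libraries (exact permutation test, p = 0.125). Thinning to 200 UMIs left out 1 to 38 and thinning to 400 UMIs 27 to 158 high-share barcodes per library, 158 of them in fresh PC2, and neither left out reference barcodes. Among high-share barcodes, fresh libraries had 157 and preserved libraries 155 genes, lower in 4 of 4 animals (difference -2.05 ± 0.467, exact permutation test, p = 0.125).

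Markers of the immune lineages were present in the high-share barcodes. Each barcode thinned to 200 non-mitochondrial UMIs was given the lineage whose marker list had the most UMIs, if it had at least 2 and more than any other list. NK cells, the innate cytotoxic lymphocytes that are abundant in rat liver, and monocytes led: 389 high-share barcodes carried most NK markers, 338 most monocyte markers, 73 those of macrophages, 32 of Kupffer cells (the resident liver macrophages), 25 of T cells, 22 of hepatocytes, 9 of plasmacytoid dendritic cells, 7 of B cells and 4 of neutrophils, while 880 stayed unassigned. On average over the libraries NK-marker barcodes were 20.5% of high-share and 24.1% of reference barcodes, and monocyte-marker barcodes 19.3% and 22.6%, each lower in 6 of 8 libraries (exact permutation test, p = 0.25 and 0.125). Against reference barcodes of 500 to 1500 UMIs the monocyte-marker share turned direction, at 19.3% against 13.7% and higher in 7 of 8 libraries (exact permutation test, p = 0.25). B-marker barcodes were 0.401% against 1.13%, and neutrophil-marker barcodes 0.173% against 0.898%, both lower in 8 of 8 libraries. Hepatocyte-marker barcodes were 1.02% against 0.237%, higher in 5 of 8 libraries, a difference of 0.780 percentage points that was 0.447 without PC2. None of the 18 shares compared differed by the exact permutation test over 4 animals (lowest adjusted p = 0.281, lowest raw p = 0.125, the smallest the design allows), so a difference in lineage mix was not detectable here. Without thinning, 21.4% of the high-share and 3.33% of the reference barcodes stayed unassigned, and monocyte-marker barcodes were 37.7% and 52.0%, lower in 8 of 8 libraries, where the deeper reference barcodes are assigned more often. Since a barcode is counted for its leading markers alone, fewer cells of a type and less RNA of its markers per cell cannot be told apart.

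The summed NK list (9 genes in the files, Gzmm the most abundant, none without a UMI in high-share barcodes) reached 4716, 6858, 4618 and 5404 CPM (counts scaled to a total of 1000000 non-mitochondrial UMIs) in fresh and 3522, 4832, 4195 and 6286 CPM in preserved high-share barcodes. In reference barcodes it reached 4093, 6699, 5338 and 6697 CPM in fresh and 2661, 5383, 4994 and 7603 CPM in preserved libraries, so it was higher in 3 and lower in 5 of 8 libraries. The monocyte list (8 genes, Plac8 the most abundant) lay at 4354 to 6703 CPM in high-share and 4593 to 6585 CPM in reference barcodes. Markers of endothelial cells, stellate cells and platelets stayed at or below 245 CPM in high-share barcodes, with 3, 5 and 4 genes of these lists without any UMI.

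Transcripts of both classes were summed per library and compared in edgeR with the animal as a block, apart for fresh and preserved libraries, with mitochondrial genes left out. A gene was called where its adjusted p was below 0.05 and its level differed at least 2-fold. Of 10145 genes tested in fresh libraries, 151 (1.49%) were higher and 389 (3.83%) lower in high-share barcodes, and of 9705 in preserved libraries 249 (2.57%) and 321 (3.31%). Of the 9607 genes tested in both, 51 (0.531%) were higher and 212 (2.21%) lower in both, and none was called in opposite directions. Many calls rest on few UMIs: 270 of the 389 and 217 of the 321 lower genes had fewer than 40 UMIs in all high-share barcodes, and 115 of the 151 and 180 of the 249 higher ones. The direction also depends on the scaling, since the trimmed scaling factor (TMM) shifted fitted values of high-share barcodes downwards by 0.32 to 0.48 log2 units against the plain CPM ratio. With no such factor, 529 genes were higher and 193 lower in fresh and 631 and 155 in preserved libraries, and the median of all genes moved from -0.14 to 0.24 and from -0.09 to 0.26. With DESeq2 size factors the split was 248 against 274 and 344 against 236. CPM values are therefore given first below, and fitted changes are on the TMM scale unless stated.

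Lower in all libraries were cytosolic ribosomal protein transcripts, which encode the proteins of the ribosome and are among the most abundant messengers of a cell. Their summed share of the non-mitochondrial UMIs was 18.9%, 19.6%, 17.6% and 16.8% in fresh and 18.0%, 20.0%, 18.6% and 16% in preserved high-share barcodes. In reference barcodes it was 24.6%, 27.2%, 23.8% and 22.1% in fresh and 25.6%, 28.7%, 25.8% and 22.7% in preserved libraries. The classes did not overlap, and the sum was lower in 8 of 8 libraries. Of 78 listed genes tested in fresh libraries 29 were called lower and none higher, and 75 passed the adjusted p alone in the lower direction, against 11.5% of all genes. In preserved libraries 32 of 77 were called lower, none higher, and 74 passed the adjusted p alone, against 9.89% of all genes. The median fold change was -0.82 and -0.92 on the log2 scale, against -0.14 and -0.09 over all genes tested, and it was -0.43 and -0.56 with no scaling factor, where 17 and 16 genes were called lower and none higher. Against reference barcodes of 500 to 1500 UMIs, described below, it was -0.01 and -0.22, with 2 and 1 of 71 genes called lower. Genes of this family have near-identical copies in the genome, and how reads were divided among them is uncertain, so single members are less firm than the sum.

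Rpl41, which encodes the smallest protein of the large ribosomal subunit, had 5443, 6617, 5508 and 5527 CPM in fresh and 5474, 6766, 5616 and 5377 CPM in preserved high-share barcodes. Reference barcodes held 8354, 9523, 8347 and 8231 CPM in fresh and 8744, 9627, 9057 and 8363 CPM in preserved libraries, above every value of the high-share barcodes. Its fitted change was -0.97 (SE 0.07, adjusted p = 7.27e-46) in fresh and -0.98 (SE 0.08, adjusted p = 1.56e-30) in preserved libraries. Rplp0, a protein of the ribosomal stalk, fell less, with 5676 to 7587 CPM against 7196 to 8547 CPM and fitted changes of -0.62 in fresh and -0.69 in preserved libraries. Rps14 had 5407 to 6318 CPM against 6531 to 7258 CPM. Rpl10 stood out among the animals, since NC2 had 10303 CPM in fresh high-share barcodes where the others had 5539 to 6213 CPM, and the same gap in its reference barcodes, at 12159 CPM. Rps27 and Rpl37a, both chosen after their values were seen, were called lower in both states: Rps27 fell by 1.20 and 1.25 and Rpl37a by 1.14 and 1.17 on the log2 scale in fresh and preserved libraries, and by 0.80 and 0.89 and by 0.75 and 0.82 with no scaling factor.

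Many ribosomal protein transcripts are known to begin with a stretch of pyrimidines (C and T in DNA) that starts with a C at the first transcribed base and through which their translation is regulated. The sequences below show 5 bases before and 20 bases from the annotated start of such genes, and of 3 other genes described here, to let the starts be compared. Capitals mark a run of C or T of at least 5 bases that begins with a C at the annotated start. Sequences and positions are from RefSeq on GRCr8, matched by symbol, and are written 5′ to 3′ on the transcribed strand.
Rpl10, chrX:157205845-157205869 (+): agcgtCTCTTTTCCTCTggcgcggt
Rplp0, chr12:46718371-46718395 (-): cacttCTCTCgccaggcgtcctcat
Rps27, chr2:177964587-177964611 (-): tcgctCCTTTCCggcggtgacgacc
Rpl37a, chr9:81748086-81748110 (+): tgcgtCTCTTCCTCTTCgggcttgg
Rpl41, chr7:1563478-1563502 (-): aagtgacgacaccaagcacgccatt
Gapdh, chr4:159652448-159652472 (-): tccctggtgctctctgctcctccct
Cebpb, chr3:176817000-176817024 (+): gccgagtccgagccgcgcacgggac
Alb, chr14:17906960-17906984 (-): ccccactagcctctggcacaatgaa
The runs were 12 bases in Rpl10 and Rpl37a, 7 in Rps27 and 5 in Rplp0, and Rpl41 had none at its annotated start although it fell as well. Of the 58 ribosomal protein genes of the list with a RefSeq promoter (80.6% of 72 symbols), 22 (37.9%) had such a run, against 854 of 27457 (3.11%) of all RefSeq promoters. Annotated starts can be off by some bases, which this search does not correct. Because the run was searched at an exact base, a missing run says only that these letters are not at that position, and a match is a description of the sequence.

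Transcripts of other housekeeping pathways were also lower, by smaller steps. For the nuclear-encoded respiratory chain, which makes the subunits that work together with the mitochondrially encoded ones, the summed log2 ratio of CPM was -0.26 to -0.16 over the 8 libraries and thus lower in all of them. Of its 76 and 77 genes tested, 11 and 6 were called lower and none higher in fresh and preserved libraries, against 3.83% and 3.31% of all genes called lower, with medians of -0.52 and -0.55, or -0.13 and -0.20 with no scaling factor. Mitochondrial ribosomal proteins lay at -0.16 to -0.07 and actin cytoskeleton genes at -0.17 to -0.06, both lower in 8 of 8 libraries. None of the 20 actin genes was called, and Tmsb4x, which encodes the actin-binding thymosin beta-4 and was the most abundant of them, held 25614 to 33908 CPM against 29904 to 36907 CPM. Against reference barcodes of 500 to 1500 UMIs the respiratory chain list had medians of 0.04 and -0.06, and none of its 71 genes tested was called in either state.

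Some single genes fell by more than their groups. Gapdh, the glycolytic glyceraldehyde-3-phosphate dehydrogenase, had 175, 282, 247 and 298 CPM in fresh and 359.8, 211, 290.2 and 184 CPM in preserved high-share barcodes, against 367, 455, 544 and 542 CPM and 461, 419.5, 454 and 481 CPM in reference barcodes. It was lower in 8 of 8 libraries, by 1.29 and 1.20 on the log2 scale. Hspe1, the small chaperonin of the mitochondrial matrix, fell from 144 to 181 CPM to 41.6 to 108 CPM, with fitted changes of -1.46 in fresh and -1.30 in preserved libraries, lower in 8 of 8 libraries. Sec61g, a subunit of the translocon of the endoplasmic reticulum, and Hspa8, a cytosolic chaperone, were lower in 8 of 8 libraries without reaching a 2-fold change (fitted log2 changes -0.89 and -0.94, and -0.84 and -0.83). Over the glycolysis list 2 of 13 genes were called lower in fresh and 1 in preserved libraries. In the heat shock list 1 of 11 and 1 of 10 were called lower, and 1 higher in preserved libraries. With 3.83% and 3.31% of all genes called lower, such single calls in short lists are not a result about the lists. Hsp90ab1 showed how the scale matters, since its CPM was higher in 8 of 8 libraries while its fitted change was -0.30 and -0.15.

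Lysosomal transcripts moved the other way in CPM. Their sum was 12233, 9944, 11353 and 11686 CPM in fresh and 11733, 8635, 11444 and 12115 CPM in preserved high-share barcodes, against 8144, 6429, 8875 and 10519 CPM and 9058, 6620, 9644 and 10025 CPM in reference barcodes, and higher in 8 of 8 libraries. Psap, the precursor of the saposins and the most abundant of them, had 2329 to 3710.2 CPM against 1479 to 2467 CPM. The list median was 0.30 and 0.30 with no scaling factor, but -0.09 and -0.05 on the TMM scale, where 3 of 20 genes in fresh and 1 in preserved libraries passed the adjusted p in the higher direction, against 3.42% and 4.61% of all genes, and 2 and 4 in the lower one. None was called higher and 1 was called lower, in preserved libraries. MHC class II genes had medians of 0.09 and -0.29 on the TMM scale and 0.48 and 0.07 without a factor, and no gene of that list was called. Against reference barcodes of 500 to 1500 UMIs, however, 4 of 5 tested MHC class II genes were called higher in fresh libraries (median 1.02), against 0.49% of all genes, and none in preserved libraries (median 0.41), where 3 of 5 passed the adjusted p alone. Genes of p53, apoptosis and the integrated stress response summed to more CPM in 8 of 8 libraries, with Txnip, a thioredoxin-binding protein, at 359.8 to 568 CPM against 191 to 289.8 CPM (fitted changes 0.46 in fresh and 0.89 in preserved libraries). On the TMM scale, however, this list had medians of -0.14 in fresh and 0.09 in preserved libraries. Only 1 of its 15 tested genes was called higher, in preserved libraries, against 2.57% of all genes, and 4 with DESeq2 size factors. Against reference barcodes of 500 to 1500 UMIs the medians were -0.18 and -0.19, with 1 of 11 tested genes called lower in fresh libraries. Of the nuclear long non-coding RNAs listed, which would mark nuclear RNA, 1 of 7 symbols was in the files and none was tested.

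Among the 51 genes higher in both states were transcripts of hepatocytes, the parenchymal cells of the liver. Alb, serum albumin, had 193, 4.54, 82.3 and 199 CPM in fresh and 98.1, 5.42, 54.4 and 47.5 CPM in preserved high-share barcodes, from 22, 1, 11 and 50 and 9, 1, 9 and 8 UMIs. Reference barcodes held 4.27, 1.2, 9.7 and 6.8 CPM in fresh and 1.73, 0.919, 1.5 and 0.992 CPM in preserved libraries, so it was higher in 8 of 8 libraries, but on 1 UMI in each library of NC2. The fitted change was 4.06 (SE 0.28, adjusted p = 6.44e-46) in fresh and 4.84 (SE 0.52, adjusted p = 1.31e-18) in preserved libraries. Against reference barcodes of 500 to 1500 UMIs Alb changed by 1.72 (adjusted p = 0.0747 in edgeR) in preserved libraries and was not tested in fresh ones. Hpx, which encodes the heme-binding plasma protein hemopexin, rested on 47 UMIs in all and changed by 4.35 in fresh and 4.63 in preserved libraries. Rup2 and LOC680406, with 71 UMIs each, changed by 3.79 in fresh and 4.38 in preserved libraries and by 3.88 in fresh and 3.51 in preserved libraries.

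Over the whole hepatocyte list 9 of 16 genes were tested in fresh libraries, of which 7 were called higher and none lower, and 2 of 5 in preserved libraries, against 1.49% and 2.57% of all genes called higher. A listed gene, Alb included, may have passed the filter on low counts through the high-share barcodes alone, so these counts are descriptions. With barcodes of 20 to 50% alone none of the 9 genes in fresh and 1 of 4 in preserved libraries was called. Against reference barcodes of 500 to 1500 UMIs none of the 2 genes tested in fresh and 3 in preserved libraries was called, with medians of 0.74 and 0.38. The sum was 1278, 659, 973 and 1541 CPM in fresh and 829, 531, 768 and 755 CPM in preserved high-share barcodes, against 422, 305, 539.9 and 616 CPM and 418, 282, 499 and 498 CPM in reference barcodes. Empty droplets held 471, 354, 1033 and 857 CPM and 359, 317, 417 and 512 CPM. Thus the sum was above the reference barcodes in 8 of 8 libraries and above the empty droplets in 7 of 8, fresh PC1 being the exception. Its most abundant gene was Tf (transferrin), at 488 to 806 CPM against 245 to 504 CPM, and every gene of the list had UMIs in high-share barcodes. A large part of the sum was thus Tf. At least 10 UMIs of the list occurred in 1524 of the deeper reference barcodes, in 6 barcodes of 20 to 50% and in 2 of 50% or more. Whether the sum came from hepatocytes was not tested.

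Alb UMIs were most frequent in the barcodes of the highest mitochondrial share. Of the 436 barcodes with 50% or more, 63 (14.4%) had an Alb UMI, at 36.4%, 2.08%, 13% and 19.6% in fresh and 27.8%, 0%, 8.82% and 8.51% in preserved libraries. Of the 1447 with 20 to 50%, 13 (0.898%) had one, and of the reference barcodes 509 of 32170 (1.58%), although these were several times deeper. No high-share barcode held more than 4 Alb UMIs. With barcodes of 20 to 50% alone, the Alb difference was 1.11 (adjusted p = 0.249) in fresh and 2.97 (adjusted p = 0.00694) in preserved libraries, in the same edgeR test. With barcodes of at least 30% it was 5.39 and 6.07. Free RNA was also subtracted at the UMI count of an empty droplet, an alternative chosen after seeing the data. The Alb change was then 4.10 in fresh and 4.84 in preserved libraries. This subtraction covers 2.08 to 4.31% of the non-mitochondrial UMIs of high-share barcodes, so whether Alb came from free RNA was not tested.

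AY172581.24 and AY172581.9 were also among the 10 largest increases. These symbols carry the name of a sequence record of the rat mitochondrial genome, but do not start with Mt-, so the rule and the mitochondrial totals did not include them, and the files do not say what they encode. AY172581.24 had 3351, 909, 3113 and 3569.6 CPM in fresh and 4209, 997, 3264 and 3565 CPM in preserved high-share barcodes. In reference barcodes it had 456, 219, 442 and 460.4 CPM and 551, 253, 578 and 549 CPM, and NC2 was lowest in both classes. It was higher in 8 of 8 libraries, by 2.31 (SE 0.09, adjusted p = 3.83e-149) in fresh and 2.19 (SE 0.09, adjusted p = 7.65e-125) in preserved libraries. AY172581.9 had 205 to 913 CPM against 45.8 to 91.8 CPM. Both are given as a description, since whether they belong to what the rule measured was not tested.

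Cebpb, a transcription factor of myeloid differentiation and the acute-phase response, was among the 10 largest increases too. It had 61.3, 145, 554 and 528 CPM in fresh and 196, 130.02, 363 and 535 CPM in preserved high-share barcodes, from 7, 32, 74 and 133 and 18, 24, 60 and 90 UMIs. In reference barcodes it had 29.4, 32.4, 61 and 68.2 CPM and 31.5, 17.6, 32.3 and 35.2 CPM. High-share barcodes were higher in 8 of 8 libraries, by 2.3 (SE 0.15, adjusted p = 4.48e-53) in fresh and 3.03 (SE 0.18, adjusted p = 2.09e-62) in preserved libraries, and in both states the CDAA animals had more than the CSAA animals. The other genes among the 10 largest increases were AABR07000398.1, at 35 to 302 CPM against 15.2 to 36.6 CPM (but with a fitted change of -1.0 against reference barcodes of 500 to 1500 UMIs in fresh libraries), Cpm (carboxypeptidase M, a membrane peptidase), at 21.7 to 76.3 CPM against 3.59 to 14.8 CPM, and Vps9d1, which encodes a VPS9 domain protein, at 17.5 to 59.9 CPM against 5.96 to 7.94 CPM.

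Some abundant genes outside the naming rule were added after their values were seen. Rn60_1_2212.4, which the files give without a gene name, had 56265, 77229, 60080 and 58329 CPM in fresh and 62688, 77609, 58197 and 72168 CPM in preserved high-share barcodes. Reference barcodes had 26635, 26564, 20949 and 21716 CPM and 22683, 23440, 21110 and 23421 CPM, so no library overlapped, and the fitted change was 1.0 (SE 0.05, adjusted p = 9.74e-73) and 1.21 (SE 0.08, adjusted p = 1.82e-47). Slfn4, a Schlafen family gene of myeloid cells, had 814, 1122, 1182 and 1692 CPM and 1385, 1371, 1269.5 and 1557 CPM against 366, 399.7, 314 and 441 CPM and 392, 309, 261 and 358 CPM, again without overlap. Nfat5, a transcription factor of the response to osmotic stress, lay at 86.3 to 239 CPM against 29.99 to 62.1 CPM, and C3, the central complement component, at 21.8 to 345 CPM against 10.6 to 72.8 CPM. Their fitted changes were 1.27 in fresh and 1.52 in preserved libraries, and 1.55 in fresh and 1.67 in preserved libraries. Against reference barcodes of 500 to 1500 UMIs none of these genes was called, and their changes, given below, lay between -0.35 and 0.19.

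The 10 largest decreases by the naming rule were RGD1565317, AABR07007853.1, Rn60_14_0788.1, RGD1560821, Rpl35a, AABR07072440.1, LOC100910017, LOC100364191, AABR07037412.1 and RGD1564469. They had between 0 and 18 UMIs in all high-share barcodes together, so no size is given for their change. Nearly all are predicted genes or copies without a name of their own, and 120 of the 212 genes lower in both states had no gene name, while 39 had the symbol of a ribosomal protein. Reads that fit several copies may be divided among them, so these calls are uncertain.

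The levels did not change in one direction across the mitochondrial share. With barcodes pooled over libraries in steps of under 5%, 5 to 10%, 10 to 15%, 15 to 20%, 20 to 30%, 30 to 50% and 50% or more, the ribosomal protein sum was 253770, 248130, 218420, 186430, 173240, 182010 and 225080 CPM. The pooled sum was lowest at 20 to 30%, but in fresh NC2, fresh PC1 and preserved NC2 the lowest step was under 5%, 15 to 20% and 30 to 50%. Above 50% it was higher than at 20 to 30% in 8 of 8 libraries. Rn60_1_2212.4 ran from 20235 CPM under 5% to 72498 CPM at 20 to 30% and was back at 24890 CPM above 50%. Cebpb followed the same course, with 16.3, 41.7, 166, 282, 369, 363 and 70.03 CPM, and so did Slfn4, with 239, 374, 898, 1260.2, 1508, 1453 and 251 CPM. Barcodes of 10 to 20%, which belong to the reference, were thus between both classes. The hepatocyte list instead rose at the end, with 370.3, 505, 538, 636, 659.5, 813 and 2533 CPM, and Alb reached 554 CPM above 50% from 7.9 CPM at 30 to 50%. Of the libraries, fresh NC2 had 24 barcodes under 5% and preserved NC1 18 barcodes above 50%.

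**Figure D2:**
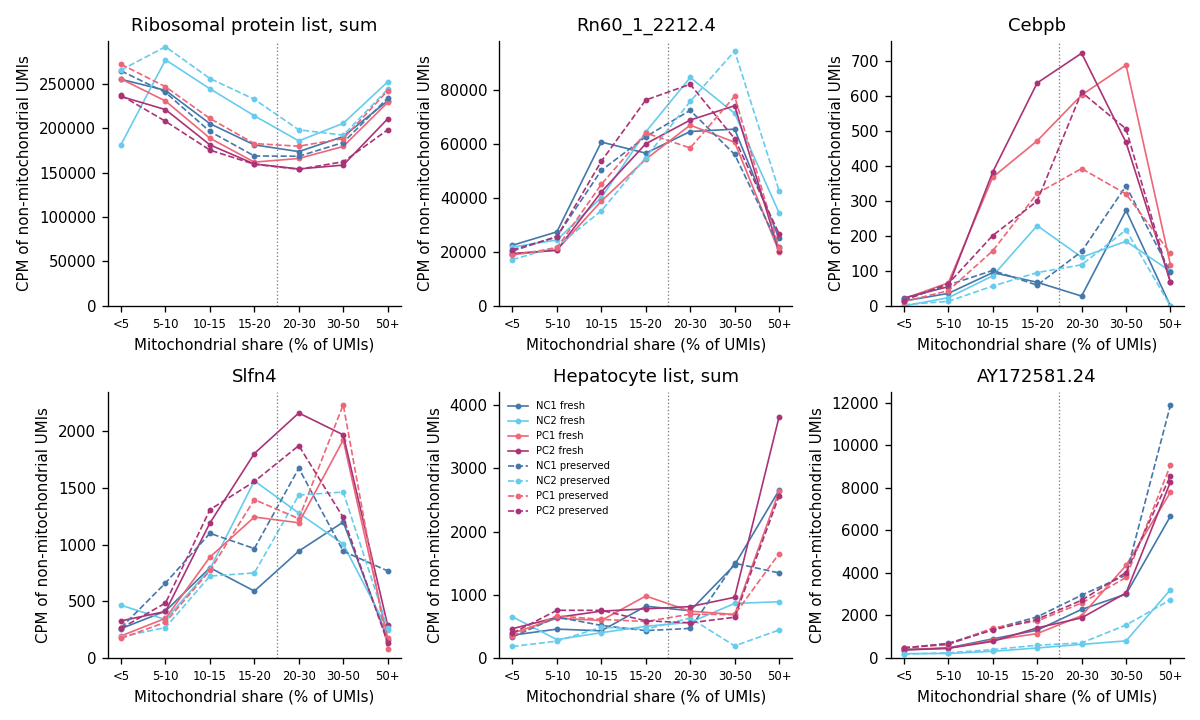
Level in CPM of non-mitochondrial UMIs (y axis) by mitochondrial share of the barcodes (x axis, percent of UMIs) for 6 features, with 1 line per library, solid for fresh and dashed for preserved, and a dotted line at 20%. Cebpb, Slfn4 and Rn60_1_2212.4 were lower above 50% than at 20 to 50% in every library and peaked at 20 to 50%, except for Cebpb and Slfn4 in fresh NC2 (15 to 20%), and AY172581.24 and the hepatocyte sum were highest above 50%, except for the sum in preserved NC1 and NC2.

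Since high-share barcodes were small, they were also compared with the 2875 reference barcodes of 500 to 1500 UMIs, which had median mitochondrial shares of 8.29 to 14.3%. Between 80.4 and 88.7% of the high-share barcodes of a library fell in this range of UMIs, and they made up 17.3 to 51.2% of its barcodes there, against 0.63 to 1.51% above 1500 UMIs. Against these small barcodes 16 genes (0.49%) were higher and 25 (0.766%) lower of 3265 tested in fresh libraries, and 20 (0.687%) and 35 (1.2%) of 2913 in preserved libraries. Of the 540 genes called in fresh libraries against all reference barcodes, 191 could be tested against the small ones and 12 were called in the same direction. In preserved libraries these counts were 570, 234 and 19. Fewer UMIs in this comparison also mean less power, so a lost call does not show equal levels, but several fitted values were near 0.

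Rn60_1_2212.4 had 74679, 74462, 56323 and 69255 CPM in fresh and 57639, 45050, 66463 and 81770 CPM in preserved small reference barcodes, and its change against them was -0.16 (adjusted p = 0.518) and 0.03 (adjusted p = 0.963). Slfn4 changed by -0.19 and 0.01, C3 by -0.15 and -0.35 and Nfat5 by 0.19 and 0.19 (adjusted p = 0.742 and 0.731). Cebpb had 53.8, 131, 410.5 and 493 CPM in fresh and 80.7, 69.9, 198 and 271 CPM in preserved small reference barcodes, and changed by 0.21 (adjusted p = 0.608) in fresh but 0.90 (adjusted p = 0.000571) in preserved libraries. The ribosomal protein list had medians of -0.01 and -0.22 over 71 genes, with 2 and 1 called lower and none higher, against 0.766% and 1.2% of all genes. By the adjusted p alone 9 and 19 of the 71 genes were lower and none higher, against 77 of 3265 and 116 of 2913 of all genes, and 36 and 70 of the 71 had negative values. Rps27 still passed the adjusted p in both states, with -0.55 (adjusted p = 0.00342) and -0.75 (adjusted p = 0.000183), whereas Rpl37a had -0.34 (adjusted p = 0.117) in fresh and -0.61 (adjusted p = 0.00213) in preserved libraries, in the same edgeR test.

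**Figure D3:**
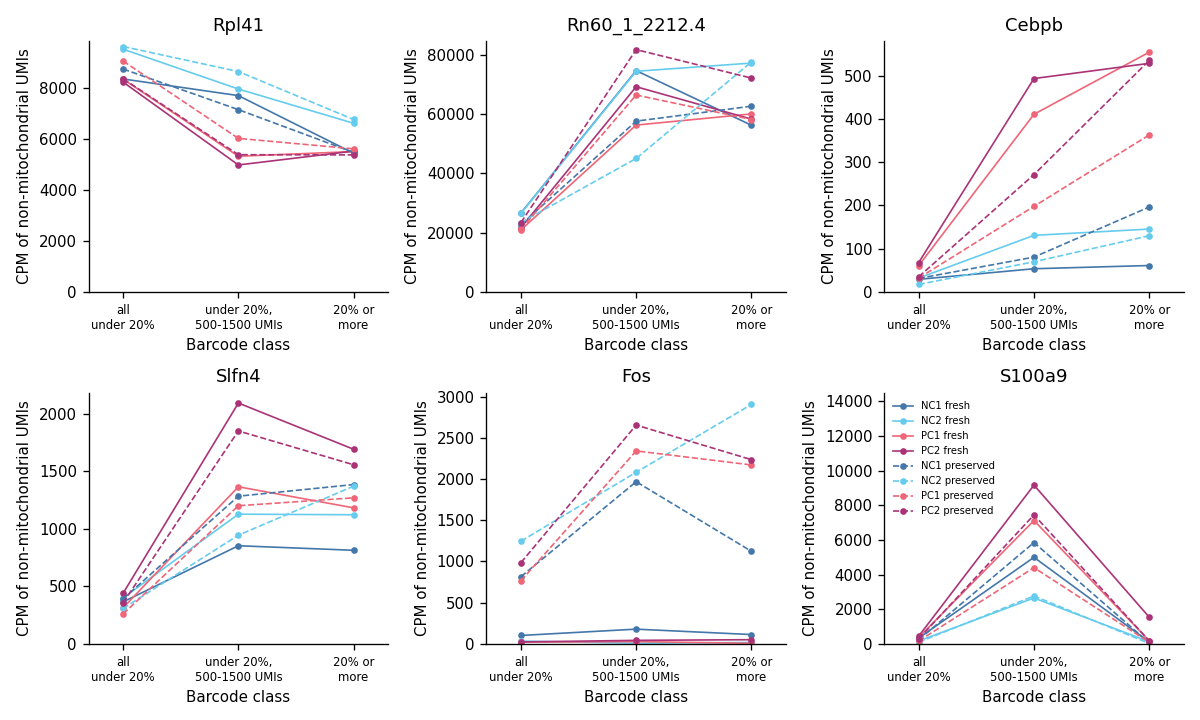
Level in CPM of non-mitochondrial UMIs (y axis) of 6 genes in 3 classes of barcodes (x axis), all under 20%, those under 20% with 500 to 1500 UMIs, and 20% or more, with 1 line per library, solid for fresh and dashed for preserved. For Rn60_1_2212.4 and Slfn4 the small barcodes lay near the barcodes of 20% or more except in preserved NC2 (45050 against 77609 CPM and 945 against 1371 CPM), whereas S100a9 was highest in the small barcodes of every library, with 1545 CPM in the barcodes of 20% or more of fresh PC2, mostly from 1 barcode.

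Some genes did differ between high-share and small reference barcodes, and those named here were chosen after their values were seen. Of the neutrophil list 2 of 4 tested genes in fresh and 2 of 2 in preserved libraries were called lower and none higher. Over all genes 0.766% and 1.2% were called lower. A neutrophil gene may have passed the filter on low counts through the small reference barcodes alone, so these list counts are descriptions. Genes of the monocyte list went the other way, as given below. S100a9 and S100a8, the calprotectin subunits of neutrophils and monocytes, were lower by 4.03 and 3.21 on the log2 scale in fresh and by 5.86 and 4.41 in preserved libraries. S100a9 had 4996, 2648, 7117 and 9159.6 CPM in fresh and 5849, 2766, 4401 and 7443 CPM in preserved small reference barcodes, against 114, 132, 187 and 1545 CPM and 65.4, 27.1, 96.7 and 178 CPM in high-share barcodes. In fresh PC2, 299 of its 389 UMIs in high-share barcodes came from 1 barcode. Stfa2, a stefin of myeloid cells, had 0 UMIs in high-share and 471 in small reference barcodes, at least 78.2-fold lower if 3 UMIs over all libraries are taken as the floor. Il1b, Ifit3 and Isg15 were among the 16 genes called lower in both states of 2802 tested in both. By leading markers, neutrophil barcodes were 6.91% of small reference barcodes and 0.173% of high-share barcodes, lower in 8 of 8 libraries (exact permutation test, p = 0.125).

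The 7 genes called higher in both states against small reference barcodes were Cd14, Fcnb and Fn1, which are expressed by monocytes, Apoe, a lipid carrier of macrophages, Hk2, a hexokinase, and both AY172581 entries. Fn1 (fibronectin) rose by 1.57 and 1.37, Apoe by 1.44 and 1.33, and Fcnb (ficolin B) by 1.08 and 1.14 on the log2 scale in fresh and preserved libraries. Fn1 and Fcnb were higher than in small reference barcodes in 8 of 8 libraries, but Apoe was lower in both libraries of NC2, at 18.2 against 106 CPM in fresh and 21.7 against 47.8 CPM in preserved ones. In fresh PC1, 420 of the 501 Apoe UMIs of high-share barcodes came from 1 barcode. Against all reference barcodes Apoe changed by 1.19 in fresh libraries and by 0.18 (adjusted p = 0.64 in edgeR) without PC1. Of the monocyte list 3 of 5 tested genes in fresh and 3 of 4 in preserved libraries were called higher and none lower, against 0.49% and 0.687% of all genes called higher, with medians of 1.0 and 1.22. A listed gene may have passed the filter on low counts through the high-share barcodes alone. These counts and medians are therefore descriptions. Against all reference barcodes Fn1 also passed the adjusted p in both states, with 239 to 674 CPM against 167 to 285 CPM.

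**Figure D4:**
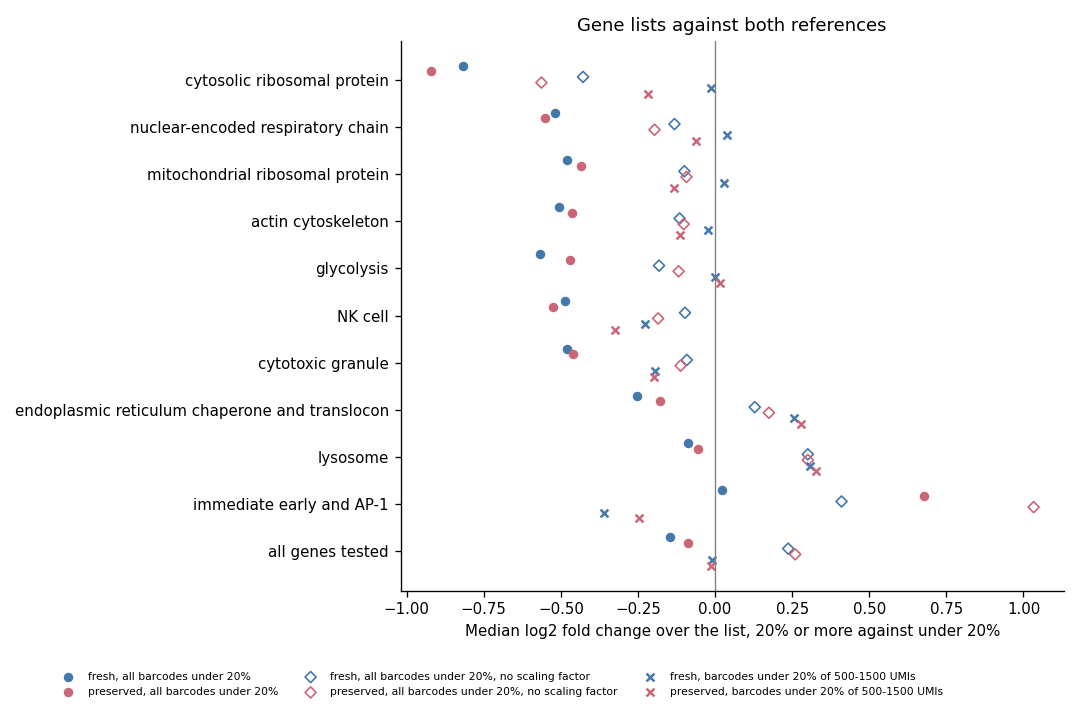
Median log2 fold change (x axis) of barcodes of 20% or more against barcodes under 20%, for 10 gene lists and all genes tested (y axis), in fresh (blue) and preserved (red) libraries. Filled circles stand for all reference barcodes, open diamonds for the same without a scaling factor and crosses for reference barcodes of 500 to 1500 UMIs, and the ribosomal protein list lies lowest among the circles and diamonds but at -0.01 and -0.22 among the crosses.

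Ribosomal protein transcripts were also lower within a lineage, against all its reference barcodes. In barcodes with leading NK markers, 28 genes (0.385%) were higher and 296 (4.07%) lower of 7275 in fresh, and 51 (0.95%) and 292 (5.44%) of 5366 in preserved libraries. The ribosomal protein list had medians of -1.05 and -1.21 there, with 41 of 77 and 54 of 74 genes called lower and none higher, and -0.45 and -0.62 without a scaling factor, with 16 and 18 called lower. NK markers themselves had medians of -0.90 and -1.02 over 9 genes, with 4 and 3 called lower, but their medians were -0.30 and -0.45 and none was called without a scaling factor. These barcodes were picked by the same markers, so this is a description. In barcodes with leading monocyte markers, 15 genes (0.208%) were higher and 249 (3.46%) lower of 7199 in fresh, and 17 (0.249%) and 343 (5.02%) of 6826 in preserved libraries. The ribosomal protein medians were -0.96 and -1.07, with 31 of 77 and 39 of 76 called lower, or -0.41 and -0.40 without a factor. A reference drawn to the lineage mix of the high-share barcodes gave changes of -1.12 and -1.16 for Rps27 and of 2.37 and 3.11 for Cebpb.

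Within the high-share barcodes, 11 of the 33 genes that were called between preserved and fresh cells belonged to the immediate early list. Of 2362 genes tested, 25 (1.06%) were higher and 8 (0.339%) lower in preserved than in fresh barcodes of the same animals, against 34 (0.297%) and 51 (0.445%) of 11462 in reference barcodes. Of this list, whose genes are transcribed within minutes of a stimulus, 11 of 13 genes tested were called higher and none lower, with a median of 1.70 against -0.02 over all genes, and 7 of 17 in reference barcodes, with a median of 0.82. Without the filter on low counts 12283 genes were tested in high-share barcodes. A listed gene may have passed the filter through its preserved counts alone, so the count of 11 and the median of 1.70 are descriptions. Fos, a subunit of the AP-1 transcription factor, had 114, 18.2, 7.48 and 51.6 CPM in fresh and 1123, 2904, 2170.2 and 2234 CPM in preserved high-share barcodes, from 13, 4, 1 and 13 and 103, 536, 359 and 376 UMIs. Fresh and preserved barcodes did not overlap, and 8.44%, 0.984%, 0.488% and 2.95% of the fresh but 44.9%, 68.2%, 53.1% and 52.9% of the preserved high-share barcodes had a Fos UMI. In reference barcodes Fos rose from 103, 34.9, 22 and 24.5 CPM to 816, 1246, 766 and 985 CPM.

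On the log2 scale Fosb rose by 6.49 in high-share and 6.03 in reference barcodes, Fos by 5.65 (SE 0.30) and 4.71, Jun by 4.00 (SE 0.23) and 3.79, Dusp1 by 3.37 (SE 0.21) and 2.55, and Ccl3 by 2.55 and 1.84. Dusp1 encodes a phosphatase that shuts off stress kinases, and Ccl3 a chemokine. Among the genes lower after preservation, S100a9 fell by 2.26 and S100a8 by 1.19, and Bcl2, an inhibitor of apoptosis, by 1.48. In fresh PC2, 176 of the 245 S100a8 UMIs of high-share barcodes came from 1 barcode. Without PC2 the change of S100a9 was -1.27 with an adjusted p of 0.0635 in edgeR, and that of S100a8 was -0.89 with an adjusted p of 0.178. By leading markers, T-marker barcodes were 0.833% of the fresh and 2.86% of the preserved high-share barcodes, higher in 4 of 4 animals, while hepatocyte-marker barcodes were 1.64% and 0.397%, B-marker barcodes 0.690% and 0.112% and macrophage-marker barcodes 4.37% and 3.16%, each lower in 4 of 4 animals (exact permutation test, p = 0.125, adjusted p = 0.5625).

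**Figure D5:**
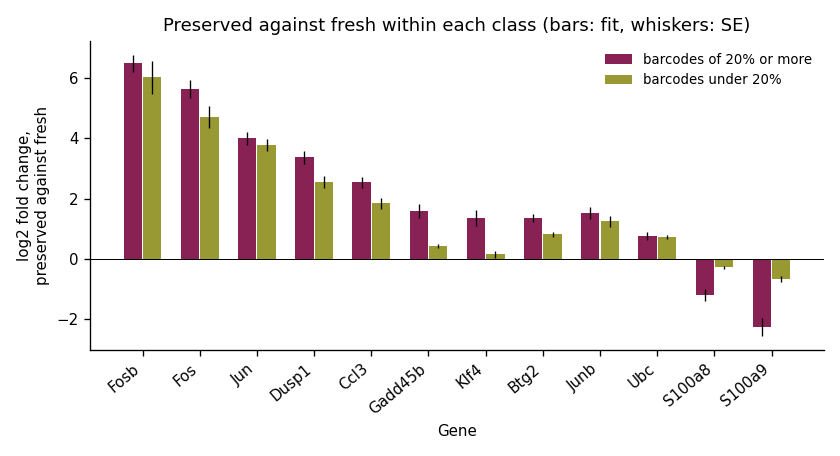
Log2 fold change of preserved against fresh barcodes (y axis) for 12 genes (x axis), in barcodes of 20% or more (purple) and under 20% (green), with bars for the fitted value and whiskers for its SE. Fos, Fosb, Jun and Dusp1 were higher after preservation in both classes, and Gadd45b and Klf4 were higher by 1.60 and 1.35 in the barcodes of 20% or more and by 0.42 and 0.15 in the others.

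Set against all reference barcodes, immediate early transcripts summed to more CPM in preserved high-share barcodes. The list summed to 8385, 14724, 8626 and 9418 CPM in preserved high-share and 5140, 6742, 3861 and 5002 CPM in preserved reference barcodes, without overlap. In fresh libraries the sums were 3028, 1963, 2672 and 2799 CPM and 2502, 1597, 2059.6 and 1988 CPM, higher in 4 of 4 animals as well. In preserved libraries 4 of 17 genes were called higher and none lower, 13 passed the adjusted p alone in the higher direction, against 4.61% of all genes, and the median was 0.68. In fresh libraries no gene was called and the median was 0.02, or 0.41 without a scaling factor, where 1 gene was called higher. Against small reference barcodes no gene of this list was called in either state, and the values lay in the other direction. In preserved libraries the median was -0.25, and Fos changed by -0.24 (adjusted p = 0.439 in edgeR). There 3 of 14 genes passed the adjusted p in the lower direction and none in the higher one. In fresh libraries the median was -0.36, with 3 of 11 genes passing in the lower direction and none in the higher one.

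A test of the difference itself (the interaction of class and preservation) passed an adjusted p of 0.05 for 34 of 10480 genes (0.324%), and 8 of them with a 2-fold size, 4 (0.0382%) in each direction. Klf4, a transcription factor of monocytes and an immediate early gene, had 96.3, 31.8, 112 and 179 CPM in fresh and 262, 244, 320.4 and 238 CPM in preserved high-share barcodes, but 97.6, 62.5, 93.1 and 86.9 CPM and 103, 95.2, 76.7 and 85.2 CPM in reference barcodes. Its preservation effect was 1.23 larger in high-share barcodes on the log2 scale. Gadd45b, a stress-induced growth arrest gene, had 87.5, 132, 135 and 87.4 CPM and 153, 363, 254 and 475 CPM in fresh and preserved high-share barcodes, and 83 to 149 CPM in reference barcodes, with a difference of 1.17. For S100a9 the difference was -1.72, and -0.49 without PC2.

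With the choline-deficient diet 2 of 7 tested genes of the macrophage list were called higher and none lower among the high-share barcodes, and 4 of 7 tested genes of the T cell list lower and none higher. The Kupffer cell list had 1 of 6 genes called in each direction. Of 4550 genes tested over 2 animals per diet, 79 (1.74%) were higher and 52 (1.14%) lower with the choline-deficient diet, against 70 (0.555%) and 20 (0.159%) of 12609 in reference barcodes. The summed macrophage list held 1663, 1372.5, 2455 and 2775.5 CPM in fresh and 1330, 1306, 2273 and 2258 CPM in preserved high-share barcodes, and the diets did not overlap. The Kupffer cell list held 569, 1050, 1676 and 1410 CPM in fresh and 2213.5, 699, 1759 and 1325 CPM in preserved ones, so preserved NC1, a CSAA library, was the highest. That value rests on few barcodes. In preserved NC1 the list held 6677 CPM in the 27 barcodes of 30 to 50% but 673 CPM at 20 to 30%. Its gene Marco had 42 UMIs there, from 2 barcodes. The higher genes named next were picked by their adjusted p, so they are single genes and not a list. A gene near 0 in 1 diet, such as Fabp4, may have passed the filter on low counts through the other diet alone. Sizes, adjusted p and list counts of this diet comparison are therefore descriptions. Fabp4, a fatty acid carrier, had 8.75, 4.54, 307 and 762 CPM in fresh and 21.8, 0, 810.1 and 564 CPM in preserved high-share barcodes, and the diets did not overlap. Its change was 6.47 (SE 0.40, adjusted p = 1.54e-07 in edgeR) and 7.17 in reference barcodes. Spp1, the secreted phosphoprotein osteopontin, changed by 6.37 and 8.99 and Cd63, a tetraspanin of late endosomes, by 3.54 and 3.28. Lpl, lipoprotein lipase, changed by 5.32 and 4.80 and Gpnmb, a glycoprotein of lipid-laden macrophages, by 4.77 and 4.33.

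Lower with the choline-deficient diet were Slpi, a protease inhibitor, by 1.66, Cd3d and Cd3g, subunits of the T cell receptor complex, by 2.11 and 1.65, and Mcpt8l3, a mast cell protease gene, by 1.88 on the log2 scale. Cd3d had 271, 254, 82.3 and 39.7 CPM in fresh and 316, 271, 84.6 and 65.4 CPM in preserved high-share barcodes, so the diets were apart in both states. In reference barcodes the changes were -1.10, -1.65, -1.40 and -1.68. The T cell list had a median of -1.65, and the same limit of the filter applies to this list and to the genes named here. Cxcl1, a chemokine, had 18, 13, 0 and 0 UMIs in fresh and 16, 16, 0 and 0 UMIs in preserved high-share barcodes. In bulk sums like these, fewer cells of a type and less RNA per cell cannot be told apart.

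A test of whether the class difference varied with diet passed an adjusted p of 0.05 for 21 of 11834 genes (0.177%), and 8 of them with a 2-fold size, of which 6 (0.0507%) were higher and 2 (0.0169%) lower with the choline-deficient diet. One of them was Cebpb, whose excess in high-share barcodes was larger by 1.05 on the log2 scale in CDAA animals. Within high-share barcodes its diet effect was 1.87, and 0.84 in reference barcodes. Ncr1, an activating receptor of NK cells, had 149, 232, 52.4 and 75.4 CPM in fresh and 65.4, 65, 42.3 and 59.4 CPM in preserved high-share barcodes, and its difference was -1.46. The values of S100a9, for which 1 barcode held most UMIs of fresh PC2, and of hemoglobin genes, which rest on few UMIs, are given in the closing paragraphs.

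The span of the genes on the genome was not used by the rule. Among genes with at least 10 UMIs in every sum, 178 passed the adjusted p in both states in the higher direction and 185 in the lower one, out of 1182 tested in both. The median span from start to end of the gene was 19.3 kb for the 165 higher genes with a RefSeq entry on GRCr8, 3.69 kb for the 154 lower ones and 9.97 kb for all 1069. The interquartile range of the higher genes ran from 8.07 to 39.9 kb and that of the lower ones from 2.28 to 6.81 kb. These are descriptions over genes, which are not independent, and ribosomal protein genes with their median of 3.26 kb are among the lower ones.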

How the data were processed

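The authors made the deposited count matrices with Cell Ranger 2.1.1, which aligns with STAR, after bcl2fastq 2.17.1.14, per the submitters' processing notes. The values are UMI counts of 32754 genes per barcode. The members, gene lists and tests were chosen with earlier results of these data known. Barcodes of at least 500 UMIs were divided at a mitochondrial share of 20%, and counts without the 13 Mt- genes were summed per library and class. No doublet caller was run, and no upper limit on UMIs was set. edgeR 4.0.16 (R 4.3.3, quasi-likelihood, TMM, Benjamini-Hochberg) was fitted over all genes, with the animal as a block. Each rat had 1 diet, so for the diet comparison both libraries of a rat were added, leaving 2 sums against 2 and no block. For class by diet the same sums per class were used with the animal as a block, and for class by preservation each library was a block. The tests were tried on simulated data first. Alternatives used DESeq2 1.42.0. Sums and single values came from Python 3.11.15 (scipy 1.17.1 for exact tests, pandas 2.3.3 for tables).

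The labels tie fresh and preserved libraries to an animal. Deviations of same-animal libraries correlated at 0.379, 0.460, 0.359 and 0.509 in high-share and at 0.731, 0.908, 0.794 and 0.854 in reference barcodes over 1184 genes. The highest correlations with another animal were 0.182, 0.205, 0.203 and 0.371 in high-share and 0.325, 0.0494, 0.406 and 0.546 in reference barcodes. Each was below the same-animal value, so the block follows the animal.

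Named genes were the 10 largest changes in each direction among genes called in both states with 1 direction in 8 of 8 libraries, the up to 4 most abundant members of each list, Fos, Fosb and Jun, and the 5 smallest adjusted p in each direction of the other comparisons. Apoe, C3, Nfat5, Slfn4, Rn60_1_2212.4, Rps27, Rpl37a and the genes named against small reference barcodes were added after values were seen. Intervals cover counting error only. A gene that had been added to the named ones after values were seen is not reported here.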

Additional observations from a re-analysis of the deposited data

Results flagged for a closer look

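Among groups of 4 libraries, where chance marks about 1 in 20, 3 values stood far from the others. The median mitochondrial share of the fresh high-share barcodes of PC2 was 33.9%, above the 3 other fresh libraries, and PC2 also had most barcodes of 50% or more. The median of the preserved high-share barcodes of PC2 was 822 UMIs, below the other preserved libraries. The log2 ratio of the macrophage list was -0.019 in preserved NC1, while the other 3 preserved animals were higher.

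The class difference varied with preservation for 8 genes in edgeR, by -1.72 for S100a9, -1.12 for Dnajc19, 1.17 for Gadd45b, 1.23 for Klf4, 1.51 for Rdm1, 1.09 for Id1, -1.28 for Tmem261 and -1.15 for Fkbp3 on the log2 scale. Without PC2 the value of S100a9 was -0.49, and 299 of the 389 S100a9 UMIs of its fresh high-share barcodes were in 1 barcode.

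With diet it varied for 8 genes, among them Cebpb by 1.05, S100a9 by 1.80, Ncr1 by -1.46 and Marco by -5.92. For S100a9 it was 0.14 without PC2, and for Marco 5.12 without NC1. The fitted values of Hba-a1, Hbb and LOC103694857 (4.19, 15.40 and 5.20) rest on few UMIs and are no bounds. Hbb had 6 UMIs in fresh PC1 and 2 in fresh PC2, each in 1 barcode.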

How the results depend on the processing

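With 4 animals the smallest exact p is 0.125, and 2 animals per diet cannot reach 0.05. High-share barcodes hold few UMIs, so most genes called in 1 direction rest on under 40 of them, and their fold sizes are loose. The choline-deficient minus choline-sufficient difference in the share of high-share barcodes was -0.768 without NC1 and -0.282 without PC2, and -0.768 to 2.78 percentage points over the animals left out. The preserved minus fresh difference was -1.13 to -0.0923.

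Each of the following counts is the total of calls under a setting, of which the genes may be others than those of the report. In fresh libraries the total was 540 as reported, 86 with at least 10 counts in every sum, 348 with the DESeq2 test, 41 against reference barcodes of 500 to 1500 UMIs, 255 at a threshold of 30% (31 higher and 224 lower, against 151 and 389 as reported) and 403 to 561 without 1 animal. In preserved libraries it was 570 as reported, 106 with at least 10 counts, 55 against small reference barcodes, 292 at 30% (29 higher and 263 lower, against 249 and 321) and 420 to 575 without 1 animal. With no scaling factor, chosen after seeing the data, the totals were 722 and 786. Within high-share barcodes the total of preservation calls went from 33 to 19 with DESeq2, 52 without a filter and 24 to 36 without 1 animal, and that of diet calls from 131 to 205 without a filter, 198 at 15% and 93 to 220 without 1 animal. The total for class by preservation went from 8 to 5 without a filter and 4 to 11 without 1 animal, and that for class by diet from 8 to 14 at 15% and 3 to 21 without 1 animal. The causes were not tested.

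Without the replicate block, which here pairs both classes of barcodes of a library, 347 genes were called in fresh and 389 in preserved libraries. Between preserved and fresh high-share barcodes, where the block pairs the libraries of an animal, 11 were called without it.

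Directions turned for single values. Against small reference barcodes they were -1.0 for AABR07000398.1, -0.16 for Rn60_1_2212.4, -0.15 for C3 and -0.19 for Slfn4 in fresh, and -0.35 for C3 and -0.54 for Cd300a in preserved libraries. At 30% C3 was -0.047 in preserved libraries, and Mmp12 was 1.0 there without barcodes over 10000 UMIs. Marco ran from -16.35 without PC1 to 5.12 without NC1 for class by diet. Macrophage-marker barcodes differed by -0.166 percentage points without PC2 to 0.612 without NC1, and by -0.658 against small reference barcodes, and monocyte-marker barcodes by 5.62 against the latter.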
